A study of Danio rerio with 4 samples.

Results

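The genes described here encode the factors that build the small (40S) subunit of the ribosome: the small subunit processome, the enzymes that modify its ribosomal RNA, the factors that take the precursor out of the nucleus, and those that finish it in the cytoplasm. They were chosen by gene symbol from a list of 57 names, 54 of which were found among the 25522 genes of the deposited Ribo-seq table. The symbols utp14a, utp18 and nop9 were not found there and were dropped. In Ribo-seq, nuclease removes the RNA that no ribosome covers, and each remaining piece that is sequenced, a footprint, marks a ribosome on a messenger RNA. There was 1 Ribo-seq library from brains of zebrafish labelled nop2 mutant and 1 from brains of fish labelled nop2 sibling, and RNA bisulfite sequencing was likewise done on 1 library per genotype. The labels name neither the nop2 allele nor the genotypes among the siblings, nor how many animals entered a library. The sample titles give an age of 48 days after fertilization and the design text gives 48 hours, a conflict that the labels leave unsettled. With 1 library per genotype no difference below had a replicate check, no test was made, and every interval covers counting error only.

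Ribosome assembly starts in the nucleolus, where the UTP-A and UTP-B subcomplexes and the U3 small nucleolar ribonucleoprotein (snoRNP) settle on the nascent precursor RNA and fold it into the processome, the particle in which 18S ribosomal RNA is cut free. Later factors escort the precursor through the nuclear pore, and a last set holds it inactive in the cytoplasm until the nuclease Nob1 makes the mature end of 18S ribosomal RNA. Nop2 itself is a nucleolar RNA methyltransferase known for its part in assembling the large (60S) subunit. Loss of several 40S factors in zebrafish, heatr1 and tcof1 among them, is known to harm the developing head.

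The Ribo-seq libraries held 18884823 reads (mutant) and 20696287 reads (sibling), and 18127 genes reached a mean of 1 CPM (counts scaled to the library total) over both. Footprints on nop2 stood at 2.17 CPM in the mutant library and 31.7 CPM in the sibling library, a log2 ratio of -3.85 (95% counting interval -4.36 to -3.41), so the mutated gene was low in the library labelled mutant. The labels give the tissue as brain and the cell type as whole brain cells. All 12 brain markers on the list used here had reads in both libraries, and their summed level was 1978 CPM in the mutant and 2708 CPM in the sibling library. Of the 12, 5 were higher and 7 lower in the mutant. Much of the gap in the sum came from fabp7a, at 252 CPM in the mutant and 800 CPM in the sibling library. Genes of other tissues were present as well, with 12 skeletal muscle markers at 24200 CPM in the mutant and 69580 CPM in the sibling library, 0 of them higher in the mutant. Lens and retina markers summed to 1204 CPM in the mutant and 3349 CPM in the sibling library, with 1 of 11 higher. Epidermal markers reached 21956 CPM in the mutant and 13768 CPM in the sibling library, with 6 of 8 higher, and blood markers 2759 CPM in the mutant and 1729 CPM in the sibling library, with 5 of 7 higher. Markers of proliferating cells, in which ribosome assembly is known to be active, summed to 2861 CPM in the mutant and 3043 CPM in the sibling library, and 6 of these 15 genes were higher in the mutant. None of the markers stood at 0 reads in either library, and the part of tissue makeup in the results below was not tested. With the muscle and eye markers taken out of the library totals, the median log2 ratio of the 54 genes given below was 0.29 in place of 0.37. That change shifts every gene alike, by -0.0721, and the median over all 18127 genes went from -0.06 to -0.13. Epidermal and blood markers stayed in the totals. In tissue of many cell types, fewer cells of a type and less RNA per cell cannot be told apart.

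Nearly all 40S assembly genes carried somewhat more footprints in the mutant library. Of the 54 genes, 49 had a positive log2 ratio (CPM of the mutant over that of the sibling library), while 44.9% of all 18127 genes were higher and 55.1% lower. All 54 genes passed the minimum of 1 CPM. Their median log2 ratio was 0.37, a 1.29-fold difference, against a median of -0.06 over all genes. Reads on the 54 genes made up 0.224% of the mutant and 0.182% of the sibling library, a summed log2 ratio of 0.30 (95% counting interval 0.28 to 0.32). At a threshold of 1.5-fold, 4 genes (7.41%) were higher, against 12.4% of all genes, and 0 were lower, against 14.5% of all genes. The order of the shares that were higher turned with the scaling: under TMM it was 8 genes (14.8%) against 14.0% of all genes, and without muscle and eye markers in the total it was 2 genes (3.70%) against 10.4%. At 2-fold, 0 were higher and 0 lower, against 4.73% and 5.70% of all genes. Of the 10065 genes at 10 CPM or more, 10.7% were at least 1.5-fold higher and 1014 genes were at least 1.5-fold lower. At 2-fold, 362 of these 10065 genes were higher and 333 lower. The share that was higher by less than 1.5-fold was 45 of 54 genes (83.3%), against 32.5% of all genes. The 4 genes past 1.5-fold were utp4, noc4l, imp4 and fcf1, with fcf1 just inside that limit at a log2 ratio of 0.59 and abt1 just outside it at 0.56.

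**Figure D1:**
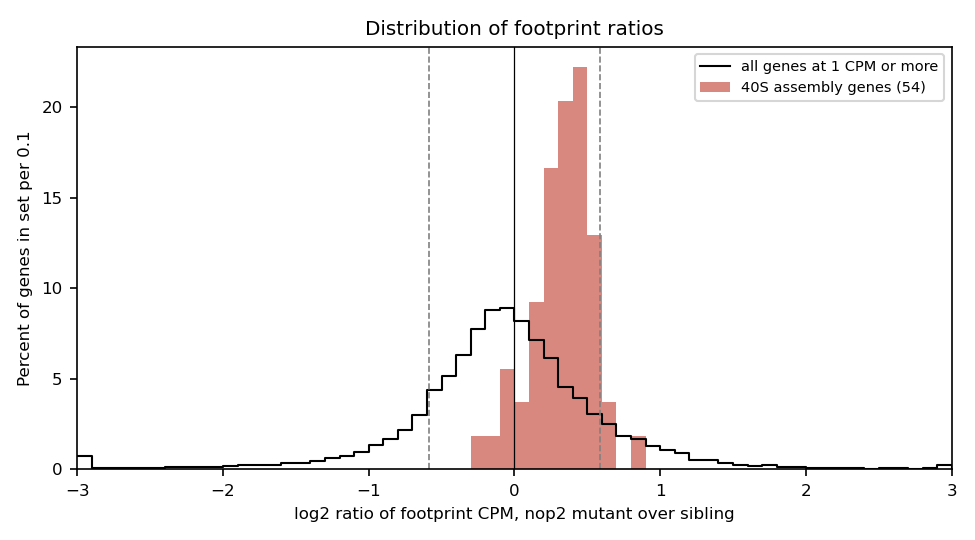
Percent of genes in each set per step of 0.1 in the log2 ratio of footprint CPM, mutant over sibling, for the 54 40S assembly genes (bars) and all 18127 genes at 1 CPM or more (line). Dashed lines mark 1.5-fold either way, and ratios beyond 3 are gathered in the end steps. The bars form 1 narrow group between -0.24 and 0.68, mostly right of 0 and left of the upper dashed line. A bar for utp4 alone, at 0.87, stands apart from that group.

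The spread among these genes was small. The interquartile range of their log2 ratios ran from 0.22 to 0.47, against -0.37 to 0.27 over all genes at 1 CPM and -0.29 to 0.25 over the 10065 genes at 10 CPM or more. Counting intervals lay above 0 for 43 genes (79.6%), against 25.2% of all genes and 31.6% of those at 10 CPM or more. They lay below 0 for 1 gene, nat10, against 31.9% of all genes. The remaining 10 intervals included 0. Without muscle and eye markers in the total, 36 intervals lay above 0, and those of wdr3, wdr75, rrp36, pdcd11, nop14, riok1 and nufip1 then included 0. The authors' deposited table lists 40 of the 54 genes (74.1%) with a positive log2 fold change and a false discovery rate under 0.05, against 17.0% of all its genes, and 1 gene with a negative one. That rate, like the counting intervals, sets 1 library against 1 library and says nothing of the spread between animals. The 17.0% was taken over all 25522 genes, those under 1 CPM included, while all 54 genes passed 1 CPM. The share of all genes with a negative change at that rate was not counted.

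**Figure D2:**
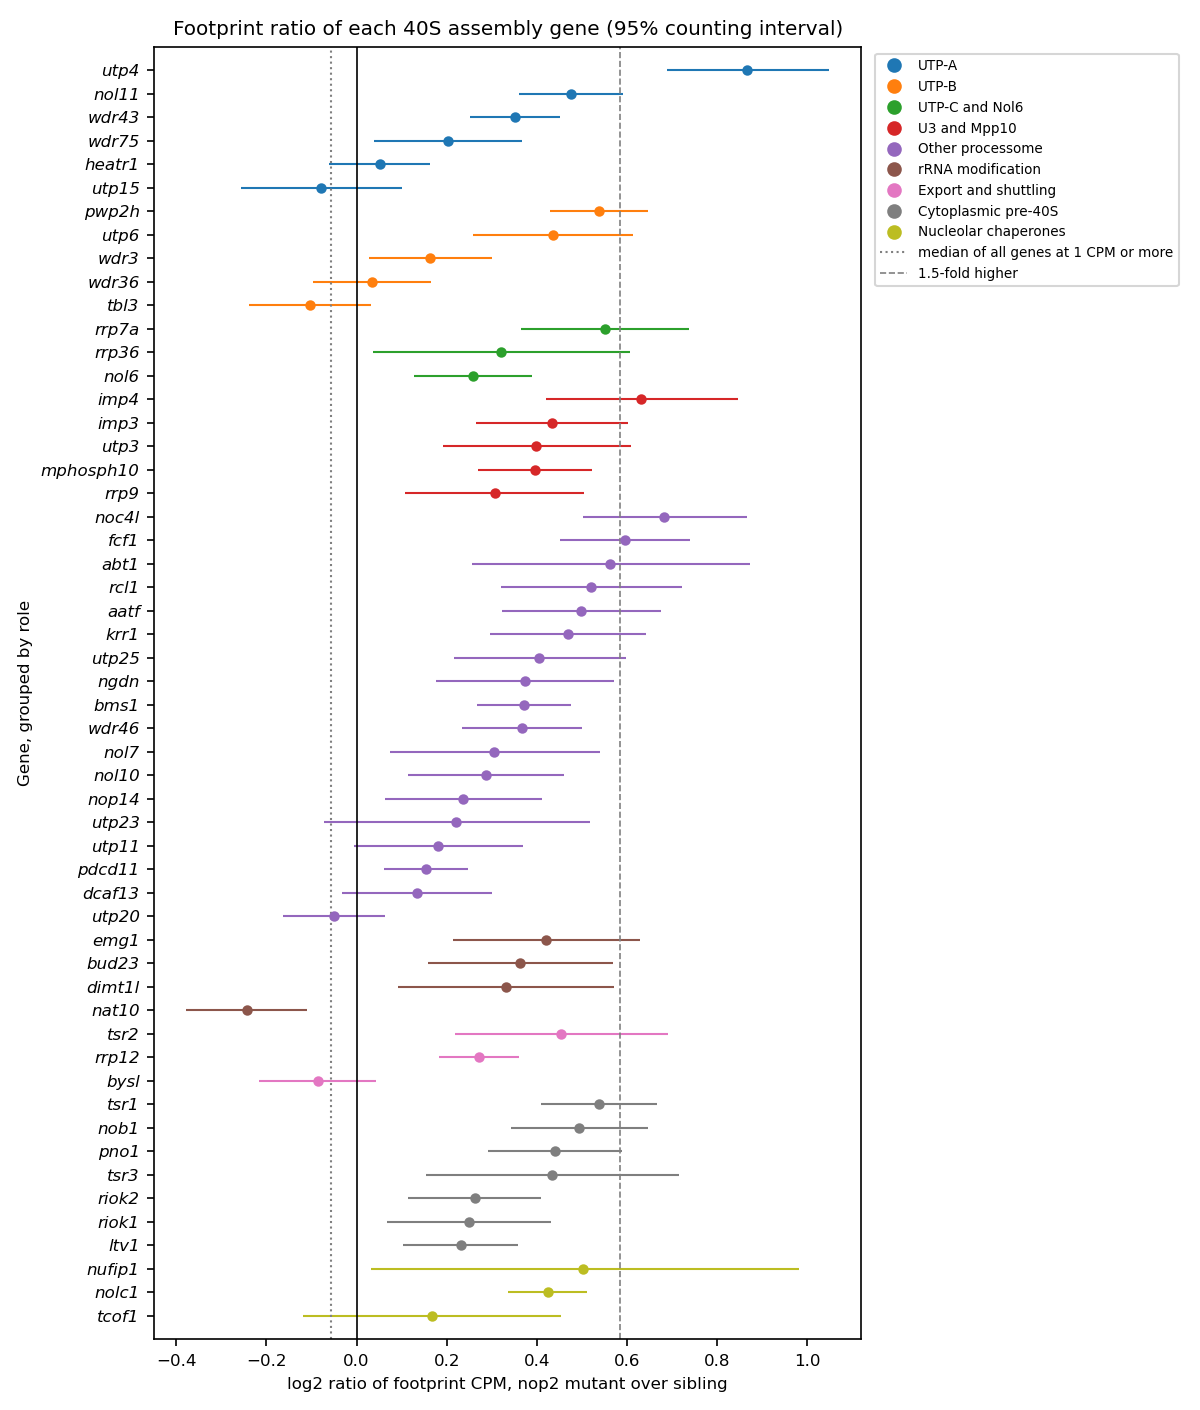
Log2 ratio of footprint CPM, mutant over sibling, for each of the 54 genes (points) with its 95% counting interval (lines), grouped and coloured by role. The highest point is utp4 at 0.87 and the lowest nat10 at -0.24, and all 7 cytoplasmic factors lie between 0.23 and 0.54.

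UTP-A, the first subcomplex to meet the nascent precursor and the one tied to its transcription, held the widest range of ratios. Its member utp4 (ENSDARG00000017675), whose human counterpart is altered in an inherited childhood cirrhosis, had 15.8 TPM in the mutant and 9.02 TPM in the sibling library. TPM is a level scaled by gene length, so it allows genes to be compared. The log2 ratio of utp4 was 0.87 (0.69 to 1.05), from 681 reads in the mutant and 409 in the sibling library, the highest of the 54. Its partner utp15 went the other way, with 14.8 TPM in the mutant and 16.3 TPM in the sibling library and a log2 ratio of -0.08 whose interval, -0.26 to 0.10, includes 0. The intervals of utp4 and utp15 do not overlap. These genes were named as the highest and lowest of the 6, and the intervals are not adjusted for that choice. The large scaffold gene heatr1 was level at 9.50 TPM in the mutant and 9.56 TPM in the sibling library. Its log2 ratio of 0.05 (-0.06 to 0.16) became -0.02 with muscle and eye markers left out of the library total and -0.0078 with TPM. The most abundant member, wdr43, had 43.4 TPM in the mutant and 35.4 TPM in the sibling library (log2 ratio 0.35, 0.25 to 0.45). The vertebrate component nol11 stood at a log2 ratio of 0.48 and wdr75 at 0.20, both with intervals above 0. Summed over the 6 genes, UTP-A had a log2 ratio of 0.30 (0.25 to 0.36).

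UTP-B, a set of mostly WD-repeat proteins that binds the precursor near its start, was divided. Its scaffold gene pwp2h had 27.3 TPM in the mutant and 19.6 TPM in the sibling library, a log2 ratio of 0.54 (0.43 to 0.65). The gene utp6, whose product has HAT repeats, followed at 0.44 (0.26 to 0.61). The other WD-repeat genes differed little: tbl3 had 14.8 TPM in the mutant and 16.5 TPM in the sibling library (log2 ratio -0.10, -0.24 to 0.03). For wdr36 a log2 ratio of 0.03 (-0.10 to 0.17) became -0.04 without muscle and eye markers in the total and -0.02 with TPM. The gene wdr3 stood at 0.16 (0.03 to 0.30). With 3 of its 5 measured genes at 0.16 or less, UTP-B had the lowest median of the early modules, 0.16, and a summed log2 ratio of 0.23 (0.17 to 0.29). The summed ratios of UTP-A and UTP-B differed by 0.07 on the log2 scale, with an interval (-0.0036 to 0.15) that includes 0.

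The U3 snoRNP guides the early cuts by pairing with the precursor, and the genes of its own protein and the Mpp10 module were all higher. All 5 genes had intervals above 0, and their log2 ratios ran from 0.31 to 0.63. Their interquartile range was 0.04 wide, but with 5 genes it leaves out the highest and the lowest. The gene imp4 led with 23.6 TPM in the mutant and 15.8 TPM in the sibling library (log2 ratio 0.63, 0.42 to 0.85). Its partner imp3 was more abundant, with 53.9 TPM in the mutant and 41.6 TPM in the sibling library (0.43, 0.27 to 0.60). Both are bound by the product of mphosph10, which stood at 0.40, as did utp3, the counterpart of yeast Sas10. The U3-specific protein gene rrp9 was lowest, with 15.1 TPM in the mutant and 12.7 TPM in the sibling library (0.31, 0.11 to 0.51). Of the UTP-C module, the gene rrp7a had 30.9 TPM in the mutant and 22.0 TPM in the sibling library (0.55, 0.36 to 0.74). The larger nol6 had 13.8 TPM in the mutant and 12.0 TPM in the sibling library (0.26, 0.13 to 0.39). Between them lay rrp36, a small protein gene, at 0.32 (0.04 to 0.61).

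Among the 18 other processome factors, 17 were higher and 14 had intervals above 0, with a median log2 ratio of 0.37. The nuclease gene fcf1 (ENSDARG00000102333), whose product cuts the precursor, had the highest level per length of all 54 genes in both libraries, 73.0 TPM in the mutant and 50.4 TPM in the sibling library (0.59, 0.45 to 0.74). Next to it noc4l (ENSDARG00000045565) had the highest ratio of this group, with 18.4 TPM in the mutant and 11.9 TPM in the sibling library (0.68, 0.50 to 0.87). Its binding partner nop14 stood lower, at 11.8 TPM in the mutant and 10.5 TPM in the sibling library (0.24, 0.06 to 0.41). The intervals of noc4l and nop14 do not overlap, but they are not adjusted for naming noc4l as the highest of its group. The partners bms1, a GTPase gene, and rcl1 had log2 ratios of 0.37 (0.27 to 0.48) and 0.52 (0.32 to 0.72), so their intervals overlap.

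The proteins Aatf, Ngdn and Nol10 are known to form a complex in human cells. The log2 ratio was 0.50 for aatf, 0.37 for ngdn and 0.29 for nol10, all with intervals above 0. The RNA-binding protein gene krr1 stood at 0.47, utp25 at 0.41, wdr46 at 0.37 and nol7 at 0.31, again with intervals above 0. In zebrafish utp25 is also known as def, a gene needed for growth of the digestive organs. The largest gene of the list, the scaffold gene utp20, had 6.95 TPM in the mutant and 7.48 TPM in the sibling library. Its log2 ratio of -0.05 (-0.16 to 0.06) became 0.0054 under both TMM and DESeq2 scaling. For pdcd11, the counterpart of yeast Rrp5, which serves both subunits, the ratio was 0.15 (0.06 to 0.25). Intervals that include 0 were also found for dcaf13 (0.13), utp11 (0.18) and utp23 (0.22).

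Of 4 enzymes that modify 18S ribosomal RNA, 3 were higher and 1 lower. The exception was nat10 (ENSDARG00000054259), which acetylates cytidines of 18S ribosomal RNA and of other RNAs, with 12.7 TPM in the mutant and 15.6 TPM in the sibling library. Its log2 ratio of -0.24 (-0.38 to -0.11) came from 813 reads in the mutant and 1055 in the sibling library. It stayed between -0.32 and -0.19 under every alternative run. The methyltransferase gene emg1 had 27.9 TPM in the mutant and 21.7 TPM in the sibling library (0.42, 0.21 to 0.63). The other methyltransferase genes, bud23 at 0.36 and dimt1l at 0.33, also had intervals above 0. A partner that stabilizes Bud23, trmt112, is no member and stood at -0.27 (-0.53 to -0.02), from 11.8 CPM in the mutant and 14.2 CPM in the sibling library.

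Export and shuttling factors were mixed. The gene bysl, whose product joins the processome and leaves the precursor late, had 30.6 TPM in the mutant and 33.9 TPM in the sibling library, a log2 ratio of -0.09 with an interval (-0.22 to 0.04) that includes 0. The export factor gene rrp12 had 50.3 TPM in the mutant and 38.6 TPM in the sibling library. Its ratio was 0.27 (0.18 to 0.36) from reads and 0.38 from TPM, the largest gap between both measures among the 54 genes. The chaperone gene tsr2, whose product delivers the ribosomal protein Rps26, stood at 0.45 (0.22 to 0.69).

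The cytoplasmic maturation factors were all higher. Among the 7 genes, tsr1 (ENSDARG00000007744), which blocks translation factors from binding the unfinished subunit, had the highest ratio, with 27.7 TPM in the mutant and 19.5 TPM in the sibling library (0.54, 0.41 to 0.67). The nuclease gene nob1 had 29.2 TPM in the mutant and 21.6 TPM in the sibling library (0.49, 0.34 to 0.65). Its partner pno1 was the most abundant of the 7, with 51.8 TPM in the mutant and 39.8 TPM in the sibling library (0.44, 0.29 to 0.59). The enzyme gene tsr3, whose product modifies 18S ribosomal RNA late, had 14.3 TPM in the mutant and 11.2 TPM in the sibling library (0.43, 0.15 to 0.72). The kinases and ltv1 had lower point values, but their intervals overlapped those of pno1, nob1 and tsr3. The interval of ltv1 did not overlap that of tsr1, but these are the lowest and highest ratios of the 7. The kinase gene riok2 had 24.4 TPM in the mutant and 21.2 TPM in the sibling library (0.26, 0.11 to 0.41). Its relative riok1 had 15.1 TPM in the mutant and 13.2 TPM in the sibling library (0.25, 0.07 to 0.43). For ltv1, which must leave for the subunit to mature, the values were 34.7 TPM in the mutant and 30.8 TPM in the sibling library (0.23, 0.10 to 0.36). All 7 intervals lay above 0, although that of riok1 reached -0.0036 without muscle and eye markers in the total, and 5 of the 7 genes had estimated counts that were not whole numbers in the deposited table.

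Early processome factors and late cytoplasmic factors were then compared directly. The median log2 ratio was 0.37 for the 37 early genes and 0.43 for the 7 late genes. The log2 ratio of summed reads, mutant over sibling, was 0.31 (0.28 to 0.33) for the early and 0.38 (0.32 to 0.44) for the late genes. Early genes held 5.34 times as many reads as late genes in the mutant library and 5.61 times in the sibling library. The log2 ratio between these values was -0.07 (-0.13 to -0.0091), which does not depend on how the libraries are scaled. It became 0.0076 (-0.04 to 0.06) with the 3 export and shuttling factors counted as late, and -0.01 with TPM summed in place of reads, so the gap between early and late genes depended on these choices. Within the early set, UTP-B was the module with the largest gap to the late genes, -0.15 (-0.23 to -0.07). The U3 and Mpp10 module stood at 0.04 (-0.05 to 0.14). UTP-B was picked here as the extreme, and its interval is not adjusted for that choice. Its gap was not computed with the export and shuttling factors counted as late. In level per length the late genes lay higher in both libraries, with a median of 27.7 TPM in the mutant and 21.2 TPM in the sibling library. Early genes had a median of 16.6 TPM in the mutant and 15.3 TPM in the sibling library.

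**Figure D3:**
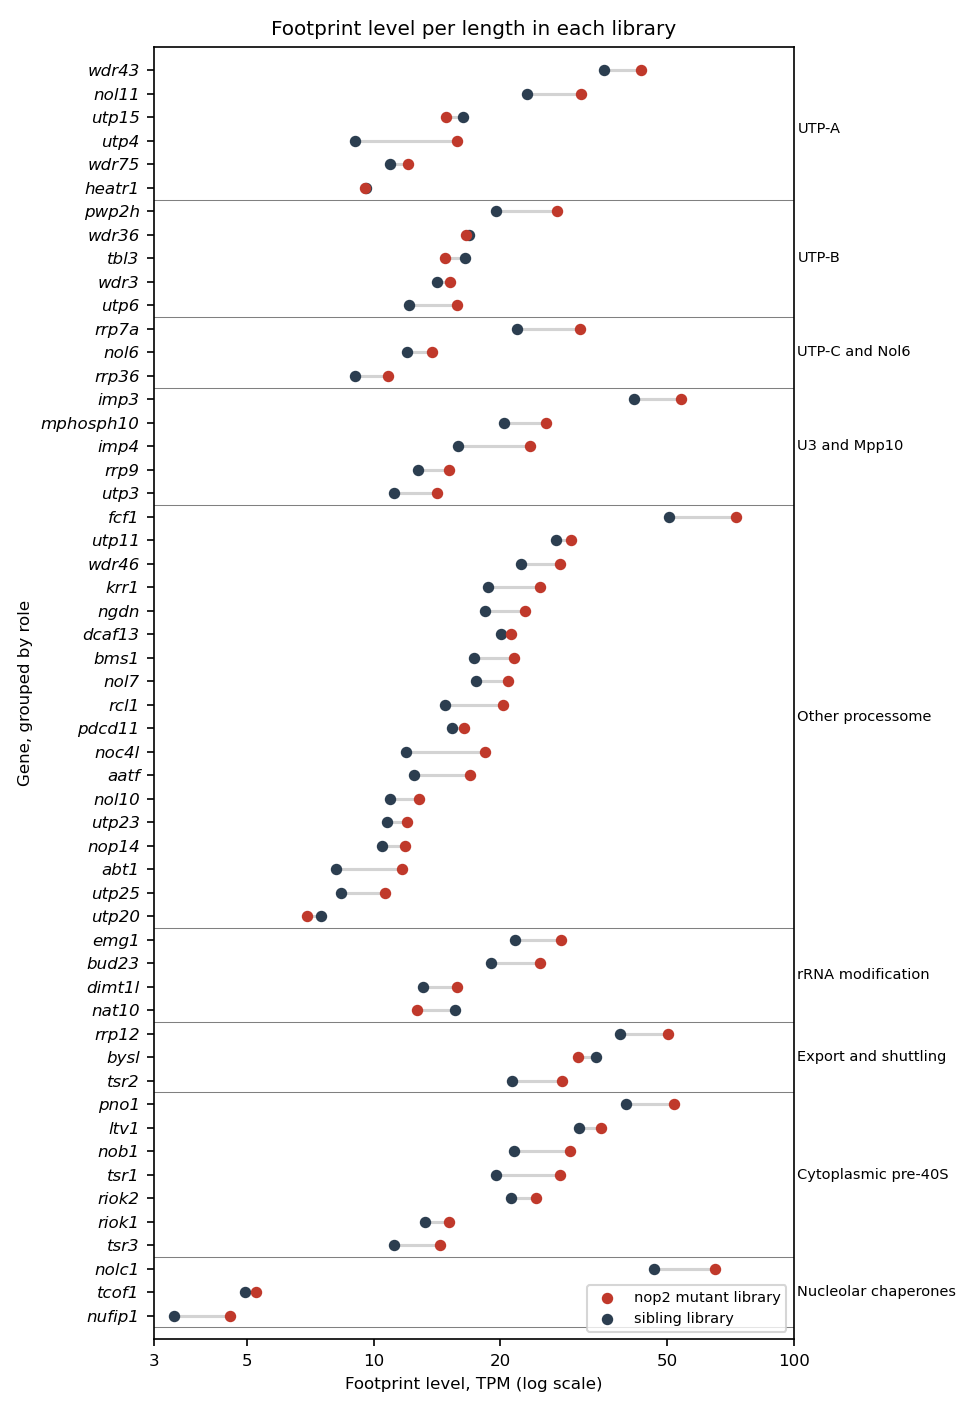
Footprint level in TPM (log axis) of each gene in the mutant library (red) and the sibling library (dark), grouped by role and sorted by mean level. Levels run from 4.55 to 73.0 TPM in the mutant and from 3.34 to 50.4 TPM in the sibling library, with the genes in nearly the same order in both.

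Levels differed far more between genes than between libraries. Within UTP-A they ran from 9.50 TPM (heatr1) to 43.4 TPM (wdr43) in the mutant library and from 9.02 TPM (utp4) to 35.4 TPM (wdr43) in the sibling library. UTP-B was more even, from 14.8 to 27.3 TPM in the mutant and from 12.1 to 19.6 TPM in the sibling library. The same 5 genes, fcf1, nolc1, imp3, pno1 and rrp12, led the order in both libraries. Across the 54 genes, Spearman's rho between TPM in the mutant and in the sibling library was 0.95, and it was 0.95 over all genes with a length estimate. Among the nucleolar chaperones, nolc1 was second of all 54 with 64.9 TPM in the mutant and 46.6 TPM in the sibling library (0.42, 0.34 to 0.51). Its relative tcof1, the gene altered in Treacher Collins syndrome, was second to last with 5.23 TPM in the mutant and 4.93 TPM in the sibling library (0.17, -0.12 to 0.45). Last was nufip1, which helps assemble snoRNPs, with 4.55 TPM in the mutant and 3.34 TPM in the sibling library (0.50, 0.03 to 0.98) from 88 reads in the mutant and 68 in the sibling library.

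Longer genes of the set tended to have lower ratios. Gene length was taken from the reads behind 1 TPM, relative to the median gene. Spearman's rho between this length and the log2 ratio was -0.41 over the 54 genes, -0.34 over the 44 assembly factors of the 60S subunit, and -0.10 over 18109 genes. The shortest, middle and longest of 3 equal groups of 18 members had median log2 ratios of 0.43, 0.36 and 0.25. All genes in the same length ranges had medians of -0.02, -0.05 and -0.13. Of the 5 lower genes 0 were among the shortest 18 and 3 among the longest 18. The longest 18 also held utp4, the highest of all 54 genes at 0.87. The longest 3, utp20, heatr1 and pdcd11, had ratios of -0.05, 0.05 and 0.15. These genes share the libraries and the length estimate, and the part of length in the ratios was not tested.

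**Figure D4:**
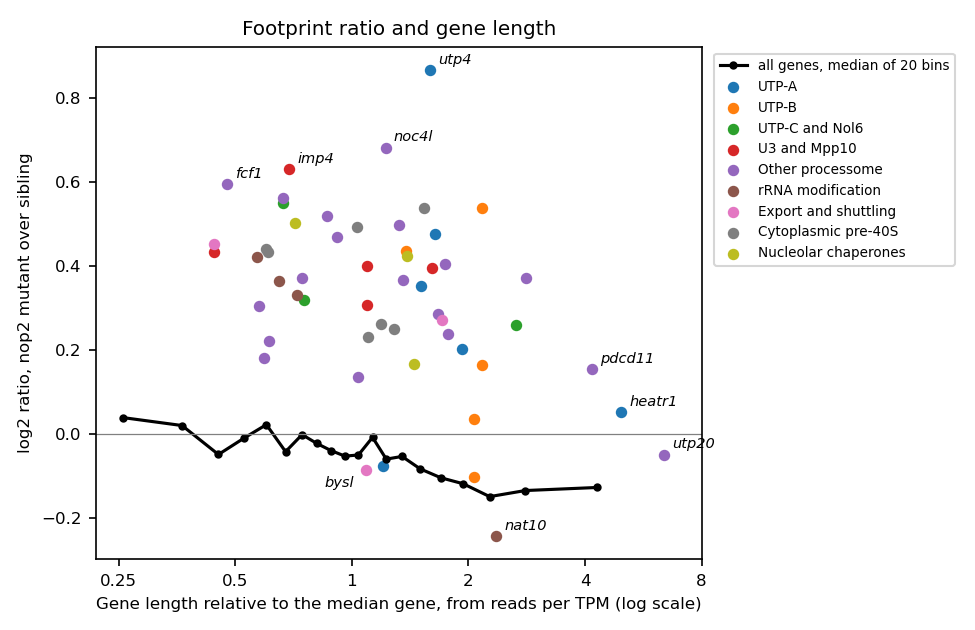
Log2 ratio, mutant over sibling, against gene length relative to the median gene (log axis) for the 54 genes, coloured by role, with the median of all genes in 20 length bins as a black line. Most points lie above the line at every length, and the 3 longest genes lie between -0.05 and 0.15.

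Other genes of the pathway that are not among the 54 were grouped in lists by role. The helicases listed for the processome had a median log2 ratio of 0.41, with all 6 higher, led by ddx52 at 0.76 (0.60 to 0.93). Within that list ddx49 stood at 0.15 (-0.09 to 0.39) and the abundant dhx15 at 0.29. Whether each of them acts mainly in the processome was not tested here. The box C/D core proteins, which U3 shares with other snoRNPs, were all 4 higher with a median of 0.36, from 0.23 for nop56 to 0.44 for fbl, the fibrillarin gene. Further processome proteins had a median of 0.72, with dnttip2 at 0.87 (0.74 to 1.00) and the abundant esf1 at 0.79. Of these 7 genes, 5 were at least 1.5-fold higher, against 12.4% of all genes. In that list srfbp1 was at -0.14 (-0.34 to 0.05).

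The 4 genes of casein kinase 2, a general kinase that also sits in UTP-C, had a median of -0.18, with csnk2a2a at -0.27 (-0.46 to -0.09) and csnk2b at -0.14 (-0.20 to -0.08). The gene csnk2a1 at -0.03 (-0.11 to 0.05) moved above 0 under TMM scaling, which adds 0.055 to every ratio. Partners of late maturation had a median of -0.12, with 1 of 6 higher under the library total and 3 of 6 under TMM scaling. Of all 18127 genes, 8142 were higher under the library total and 9016 under TMM scaling. The exportin gene xpo1b was at 0.27 (0.19 to 0.35) and its duplicate xpo1a at -0.0026.

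The products that these factors assemble had higher ratios in most cases. The 34 genes of 40S ribosomal proteins had a median log2 ratio of 0.73. Of these, 26 (76.5%) were at least 1.5-fold higher, against 12.4% of all genes. In all, 29 were higher and 5 lower, and 4 had intervals below 0: rps9 at -0.05, rps2 at -0.27, rps12 at -0.34 and rpsa at -0.98. Reads on the 54 assembly genes equalled 0.0981 of those on 40S ribosomal protein genes in the mutant and 0.124 in the sibling library, a log2 ratio of -0.34 (-0.36 to -0.32). The 44 measured 60S assembly factors had a median of 0.33, with 41 higher, or 36 without muscle and eye markers in the total. Of all 18127 genes, 8142 were higher with the full total and 7040 without muscle and eye markers in it. Among the 60S factors the highest gene was bop1 at 0.76, the lowest nol9 at -0.26, and the abundant gtpbp4 stood at 0.51. Summed reads of the 40S over the 60S factors gave a log2 ratio between libraries of -0.08 (-0.11 to -0.05), although the median of the 40S factors was the higher by 0.03. Counts were not whole for 10 of the 34 ribosomal protein genes.

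**Figure D5:**
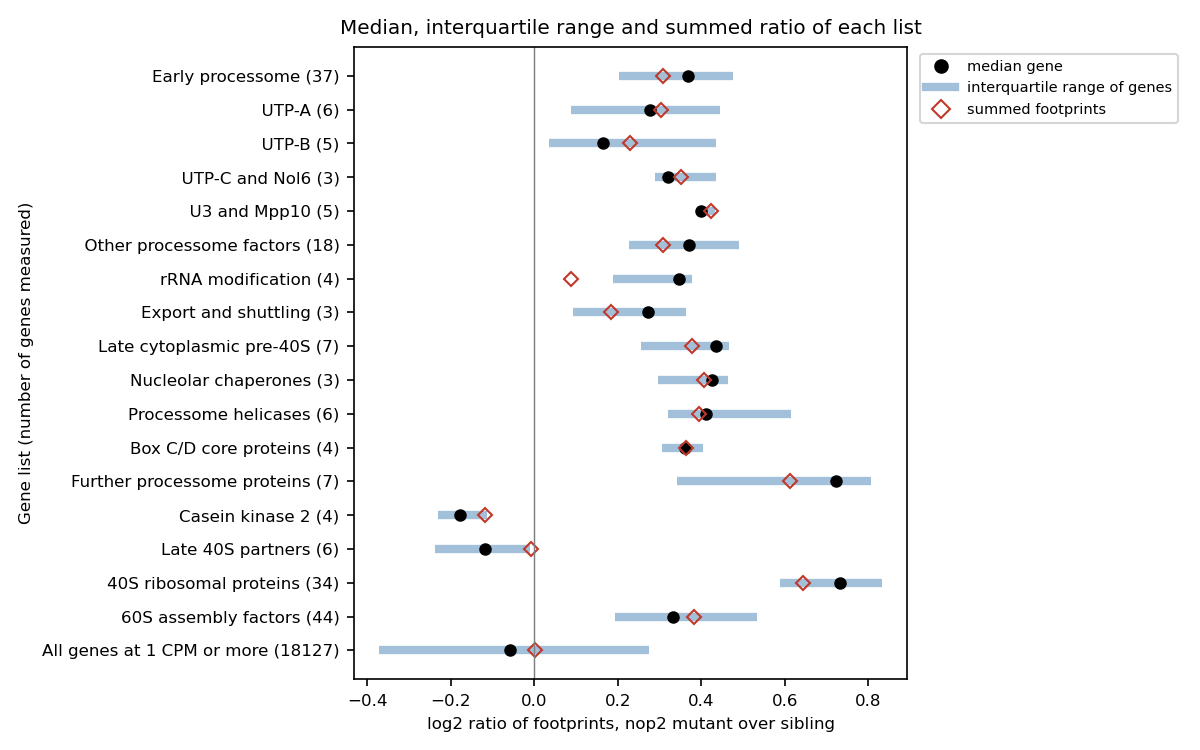
Median log2 ratio (black points), interquartile range (blue bars) and ratio of summed footprints (open red diamonds), mutant over sibling, for each role group, each further list of the pathway and all genes. Role groups of the 40S factors have medians from 0.16 to 0.43, casein kinase 2 and the late partners lie below 0, and 40S ribosomal proteins lie at 0.73.

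In the deposited annotation 11 of the 54 genes carried the Gene Ontology term for the small subunit processome and 19 that for the nucleolus. Another 13 genes at 1 CPM or more carried the processome term without being members. Their median log2 ratio was 0.44, and 12 of them were higher. This group was looked up after the members' values were known and overlaps the lists above. In the bisulfite assay, which reads 5-methylcytosine of messenger RNA, 0 of the 54 genes were among the 92 genes of the authors' deposited table of differential loci, and 0 among the 51 genes of their table of differential regions. Names in these tables matched 0.282% (loci) and 0.137% (regions) of the 25522 genes, so a count of 0 among 54 is near that background. How loci entered those tables is not given in the sources used here, so absence from them gives no methylation level.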

How the data were processed

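Ribo-seq and RNA bisulfite libraries, 1 per genotype and assay, were grouped by the genotype in their titles. Per the labels' protocols, footprints came from RNase I digestion, size exclusion columns and removal of ribosomal RNA with antisense probes and RNase H. Tools named in the submitters' processing notes, without role or order, are methylKit, SAMtools, HISAT2, Trimmomatic 0.38, STAR, Bowtie2 and fastp, and the build named there is GRCz11. Neither the program that counted reads nor the test behind the deposited p-values is named in the sources used here.

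The deposited values were the authors' estimated counts per gene (25.7% of genes not whole), TPM, a log2 fold change and a false discovery rate (an adjusted p-value). The deposited bisulfite tables compare conditions not tied to a genotype and were used only to look up gene names.

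Estimated counts were rounded, and log2 ratios were computed from CPM after adding 0.5 reads. Genes averaging 1 CPM or more over both libraries were kept. Counting intervals are exact Clopper-Pearson intervals (95%) conditional on both counts. Intervals of ratios between summed reads are Wald intervals. As reads carried no stated molecular identifiers, they need not be independent molecules, and the intervals cover counting error only. One read was worth 0.0530 CPM (mutant) and 0.0483 CPM (sibling). Counts not whole (13 of the 54 genes) may include shared reads, which was not tested. The computation of ratios and intervals was run on simulated data, which cannot show the spread between animals. Scalings came from edgeR 4.0.16 and DESeq2 1.42.0, run in R 4.3.3, and the rest from Python 3.11.15 with SciPy 1.17.1. No counts of total RNA were analysed here, so a ratio holds both transcript amount and ribosome load.

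The members, roles and lists were chosen with earlier results of these data known. Genes were named by a rule: all late factors, in each other role the highest and lowest ratio and the highest TPM, and all genes below 0. A gene that the rule names in another list is not reported here. Others were named to complete a module after their values were seen. Promoter motifs and sequences were not analysed here.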

Additional observations from a re-analysis of the deposited data

How the results depend on the processing

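The median log2 ratio of the 54 genes lay between 0.29 and 0.42 under 7 alternatives (TMM scaling, DESeq2 size factors, a library total without muscle and eye markers, deposited TPM, a pseudocount of 5, no minimum, and a minimum of 10 CPM), and 46 to 50 genes were higher, the 46 with a minimum of 10 CPM, which left out 3 genes. The number at least 1.5-fold higher was 8 with TMM scaling, 8 with size factors from DESeq2, and 2 with the total without muscle and eye markers and with TPM, against 4 as reported. The share of all genes past that limit was 14.0% with TMM and with DESeq2, 10.4% without the markers and 10.7% with TPM, against 12.4%. Intervals above 0 numbered 36 to 45. The log2 ratio of early over late between libraries was 0.0076 with export factors counted as late, against -0.07. For single genes, 374 alternative values moved by less than counting error, and the 1 exception was rrp12 with TPM (0.38). Many of the 374 could not differ: a minimum leaves a gene's own ratio unchanged, and each scaling adds the same constant to all genes. That number is therefore no measure of stability. Signs changed for utp20, heatr1 and wdr36, whose intervals include 0. No paired analysis was possible because each genotype had 1 library and no test was made, and for the same reason no library could be left out. Depth limits the least abundant genes, such as nufip1 with an interval of 0.03 to 0.98.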
